A study of Mus musculus with 6 samples.

Results

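The genes described here encode the enzymes, transporters and helper proteins by which liver cells burn fatty acids and make ketone bodies. They were chosen as a fixed set of 48 gene symbols in the deposited gene table, with earlier results of these data known. Counts of members beside the share of all genes are therefore description only. All 48 were found among the 16140 genes of that table and had enough counts to be among the 12173 genes tested. Selenoo encodes SelO, a selenoprotein of mitochondria, and had been deleted in the hepatocytes of 1 group. Both groups, with 3 liver libraries each, ate a normal diet. Controls had the genotype Selofl/fl, in which the floxed alleles stay intact, and knockouts were Selofl/fl Alb-Cre, in which the albumin promoter drives Cre recombinase in hepatocytes. Controls carried no Cre, so an effect of Cre and the loss of Selenoo cannot be told apart. The sources used here give neither age nor sex. No label says in words that the libraries came from separate animals, and p-values then measure only library-to-library spread, which may be technical.

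Fatty acids enter this pathway as acyl-CoA, made by acyl-CoA synthetases. The carnitine shuttle moves long chains into mitochondria, where repeated cycles of dehydrogenation, hydration, a further dehydrogenation and thiolysis release acetyl-CoA, which the liver turns into ketone bodies during fasting. Peroxisomes shorten very long, branched and dicarboxylic chains with their own enzymes. Cytochrome P450 enzymes of the Cyp4a family oxidise the far end of the chain (omega-oxidation) and thereby supply the dicarboxylic acids. Acyl-CoA thioesterases release free coenzyme A. Many of these genes are known targets of the nuclear receptor PPAR-alpha in the liver.

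Estimated counts per library summed to between 15550289 and 18680195. Selenoo itself fell, from 91.7 ± 6.50 to 7.76 ± 1.52 CPM (counts relative to the TMM-scaled library size; mean ± SD, n = 3; edgeR adjusted p = 4.64e-05). Among markers of other cells, the summed TPM of 5 T and NK cell genes was 6.17 to 12.6 in controls and 1.96 to 4.54 in knockouts, and that of 6 adipocyte genes was 5.16 to 31.8 and 3.63 to 10.1. The largest adipocyte sum, 31.8 TPM, was that of control replicate 2. Adipoq, which defines adipocytes, had 42 counts in control replicate 2 and 7 in knockout replicate 1. It had no counts in control replicates 1 and 3 or in knockout replicates 2 and 3. The 5 Kupffer cell genes summed to 118 to 216 in controls and 138 to 172 in knockouts, and the 5 muscle genes to at most 0.57 in any library. The 5 endothelial genes summed to 149 to 151 TPM in controls and 125 to 142 in knockouts, which did not overlap. The largest part was Clec4g, with a mean of 109 TPM in controls and 97.1 in knockouts. Lyve1 among them fell (log2 fold change of -1.15 ± 0.18, edgeR adjusted p = 0.0196). Stab2, Pecam1, Clec4g and Kdr were not called and overlapped between the groups, at log2 fold changes of -0.01, -0.22, -0.21 and 0.28. Of 6 periportal hepatocyte genes, Cdh1 and Pck1 rose, and the sum was 2318 to 3041 TPM in controls and 4099 to 4388 in knockouts. Gls2, Hal, Sds and Cyp2f2 were not called, and the last 3 overlapped between the groups. The 6 pericentral hepatocyte genes summed to 5557 to 8503 TPM in controls and 7378 to 8349 in knockouts, which overlapped. None of these 6 was called, and 5 had a positive fold change. For 5 general hepatocyte genes, Alb among them, the sums overlapped, at 141258 to 165170 and 133326 to 154577. These marker calls in edgeR did not all hold with a library left out. Lyve1 was lost without control replicate 2 (0.0648) or knockout replicate 1 (0.0909) or 3 (0.0971), and Cdh1 without knockout replicate 1 (0.0896) or 2 (0.0923). Pck1 was lost without control replicate 2 (0.148) or knockout replicate 1, 2 or 3 (0.156, 0.171 and 0.157). Fewer genes passed in the whole table as well, 77 without control replicate 2 and 59, 43 and 60 without knockout replicate 1, 2 or 3, against 181 with all libraries. The part of cell makeup in the results below was not tested, and in bulk tissue fewer cells of a type and less RNA per cell cannot be told apart.

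Ehhadh and Abcd3, of the peroxisome, and the thioesterase gene Acot1 rose in knockout livers, and none of the 48 fell, at an adjusted p under 0.05 by the quasi-likelihood test of edgeR. Of all tested genes 0.772% were higher and 0.715% lower by the same rule. The fold change was positive for 42 of the 48 and negative for 6, with a median log2 fold change of 0.297, beside -0.018 for all tested genes. At an unadjusted p under 0.05 there were 13 members higher and 1 lower, where 9.27% and 9.26% of all tested genes were. In 19 members every knockout library lay above every control library, and in 1, Ech1, below. Of all tested genes 13.3% and 11.9% separated in these ways. DESeq2, run without the low-count filter and with its own filter leaving 12057 genes, called 9 members higher (Abcd3, Acaa1b, Acot1, Acot2, Acsl1, Crat, Ehhadh, Pex11a and Slc22a5) and none lower, against 3.08% and 2.18% of all genes. The authors' deposited table, also made with DESeq2, lists the same 9 members higher and none lower at a q under 0.05, where it lists 2.03% and 1.44% of its genes.

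The count of 3 changed whichever library was left out. Leaving out control replicate 1 gave 7, control replicate 2 gave 1 (Ehhadh) and control replicate 3 gave 9, and the count was 0 when knockout replicate 1, 2 or 3 was left out. Calls in the whole table moved in the same direction, from 181 genes (1.49%) with all libraries. Without control replicate 1, 2 or 3 there were 361, 77 and 668 genes (2.93%, 0.627% and 5.42%). Without knockout replicate 1, 2 or 3 there were far fewer, 59, 43 and 60 of at least 12360 (0.477%, 0.348% and 0.485%). The members' median of 0.297 was 0.181 without control replicate 2 and between 0.251 and 0.370 without any of the others.

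**Figure D1:**
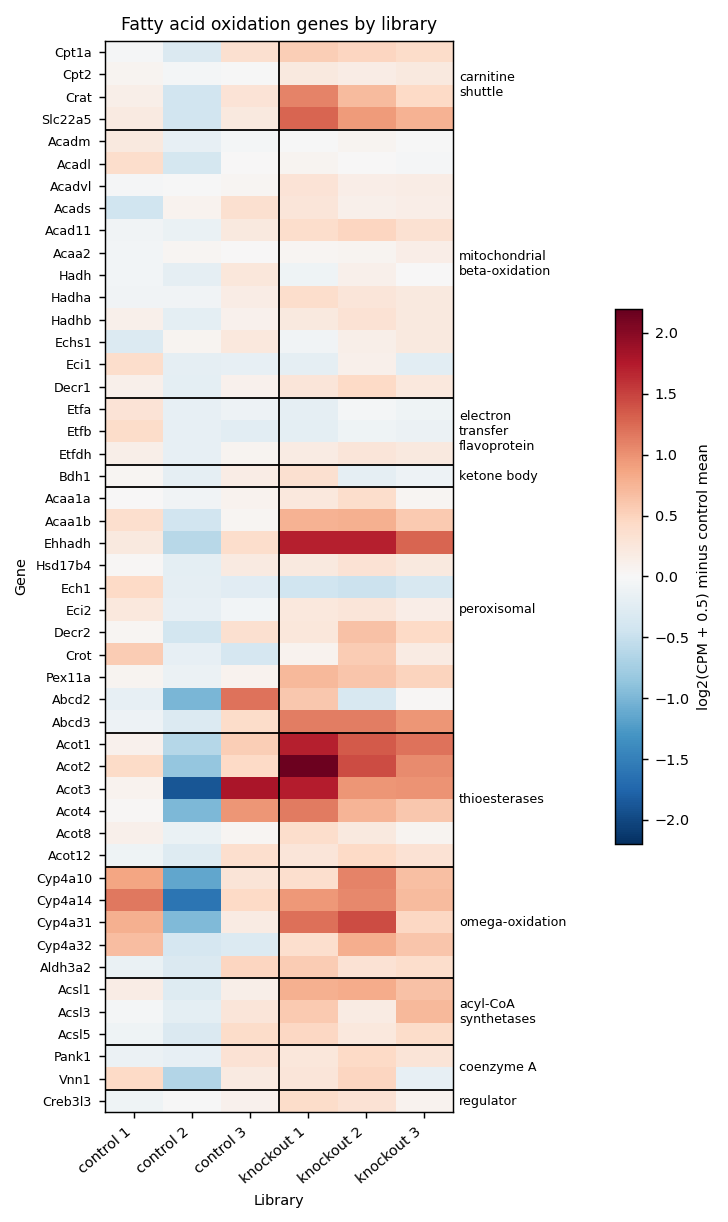
Each row is a gene, each column a library, and the colour is log2(CPM + 0.5) minus the mean of the 3 controls, with genes grouped by role. Control replicate 2 is the lowest library for 37 of the 48 genes, and Ehhadh, Abcd3, Acot1, Acot2 and Slc22a5 are red in all 3 knockout libraries.

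In the peroxisomal group, Ehhadh and Abcd3 rose, and Pex11a and Acaa1b came closest to the threshold among the rest. Ehhadh (NCBI Gene 74147, chromosome 16, 21761285 to 21787834 on the minus strand of GRCm38) encodes the bifunctional enzyme that hydrates and then dehydrogenates acyl-CoA in peroxisomes. Its level was 275, 156 and 312 CPM in control replicates 1, 2 and 3 and 777, 779 and 577 in the knockouts. The lowest knockout library thus lay well above the highest control. Ehhadh differed by a log2 fold change of 1.52 ± 0.25 (SE; edgeR adjusted p = 0.0241). Leaving out control replicate 1, 2 or 3 gave edgeR adjusted p values of 0.0259, 0.0390 and 0.0168, and leaving out knockout replicate 1, 2 or 3 gave 0.0971, 0.115 and 0.0534, each above 0.05.

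Abcd3 (NCBI Gene 19299, chromosome 3, 121755044 to 121815302, minus strand) encodes the abundant membrane transporter that brings acyl-CoA into peroxisomes. It stood at 151, 133 and 217 CPM in the controls and at 356, 358 and 319 in the knockouts, which did not overlap and were closer together than the controls. This is a log2 fold change of 1.04 ± 0.19 (SE; edgeR adjusted p = 0.0345). The edgeR call was lost without control replicate 2 (0.112) and without knockout replicate 1, 2 or 3 (0.129, 0.161 and 0.107). Abcd2, a related transporter of very long chains, had 5.12 to 25.4 CPM in controls and 8.40 to 16.6 in knockouts, so that its knockout range lay inside its control range.

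Pex11a, which encodes a membrane protein of peroxisome division, had 97.2, 85.5 and 98.0 CPM in controls and 154, 143 and 131 in knockouts. Its log2 fold change was 0.61 ± 0.13 and its edgeR adjusted p 0.0598. The thiolase gene Acaa1b, the most abundant peroxisomal member, had 1028, 591 and 819 CPM in controls and 1340, 1364 and 1178 in knockouts (0.67 ± 0.20, edgeR adjusted p = 0.128). In both genes all knockout libraries were above all controls. Acaa1a, its neighbour on chromosome 9, had 159, 150 and 168 CPM against 186, 209 and 163, and these groups overlapped. The pair share sequence: 35.5% of the 50-base words of the longest coding Acaa1b transcript also occur in Acaa1a transcripts, so the counting may divide reads between them.

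Hsd17b4, the second bifunctional enzyme of the organelle, Eci2, an enoyl-CoA isomerase, and Crot, the carnitine octanoyltransferase that exports shortened chains, had log2 fold changes of 0.24 ± 0.15, 0.21 ± 0.15 and 0.23 ± 0.25. Decr2, a dienoyl-CoA reductase, was at 0.43 ± 0.20. Ech1, a dienoyl-CoA isomerase found in peroxisomes and mitochondria, is given because it had the smallest p among the members with a negative value, a choice made after its values were seen. It had 548, 354 and 339 CPM in controls and 297, 291 and 315 in knockouts, with a log2 fold change of -0.46 ± 0.19 and an edgeR adjusted p of 0.248. All knockouts were below all controls, though control replicate 1 was much further away than the other controls. Over the 11 peroxisomal genes the median was 0.241, which became 0.429 with control replicate 1 left out and 0.626 with control replicate 3 left out.

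**Figure D2:**
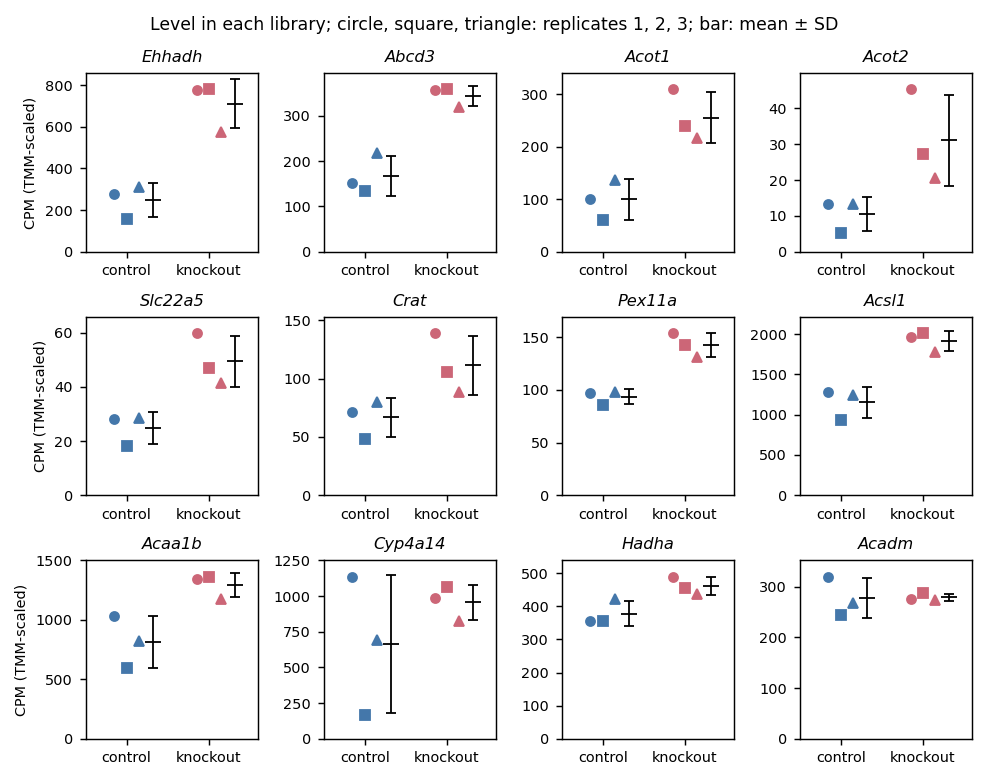
Each panel gives a gene's CPM in each library, with a colour for each group and the mean ± SD (n = 3) as a black bar. In Ehhadh the knockouts lie between 577 and 779 CPM and the controls between 156 and 312, whereas in Cyp4a14 and Acadm the groups overlap.

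Among the thioesterases Acot1 rose and its neighbour Acot2 had the larger but less certain fold change. Acot1 (NCBI Gene 26897, chromosome 12, 84009502 to 84017670, plus strand) encodes the cytosolic enzyme that cleaves long-chain acyl-CoA. Its CPM was 101, 60.6 and 137 in controls and 309, 240 and 217 in knockouts. The groups did not overlap, at a log2 fold change of 1.36 ± 0.27 (SE; edgeR adjusted p = 0.0459). This edgeR call was lost on leaving out control replicate 1 (0.0560) or 2 (0.0780), or knockout replicate 1, 2 or 3 (0.165, 0.158 and 0.110).

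Acot2, the mitochondrial long-chain thioesterase, had 13.2, 5.17 and 13.4 CPM in controls and 45.3, 27.4 and 20.5 in knockouts. Its log2 fold change was 1.56 ± 0.38 and its edgeR adjusted p 0.0774. The deposited coordinates of Acot2 (83987861 to 84016061) overlap those of Acot1 on the same strand, and 24.5% of the 50-base words of Acot2 occur in Acot1 transcripts. The values of this pair are therefore uncertain, since the counting may divide reads between them.

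Acot3 and Acot4, peroxisomal thioesterases of the same gene cluster, varied widely among the controls. Acot3 had 72.0, 18.3 and 240 CPM in control replicates 1, 2 and 3, a wider span than the 135 to 229 of the knockouts, and its log2 fold change of 0.60 had an SE of 0.68. Acot4 had 28.3, 13.8 and 55.0 CPM in controls and 62.2, 46.9 and 42.5 in knockouts. Acot12, an acetyl-CoA thioesterase of the cytosol, had 110, 95.5 and 152 CPM in controls and 141, 158 and 145 in knockouts, and its groups overlapped (0.31 ± 0.18). The peroxisomal Acot8 was at 0.23 ± 0.14. The median of the 6 thioesterases, 0.621, became 0.224 with control replicate 2 left out, 1.47 with control replicate 3 left out and 0.406 with knockout replicate 1 left out.

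The 4 genes of the carnitine shuttle (Slc22a5, Crat, Cpt1a and Cpt2) were each higher in every knockout library than in any control, as were 13.3% of all tested genes, and none passed the adjusted threshold. Slc22a5, the plasma membrane carnitine transporter, had 28.1, 18.0 and 28.5 CPM in controls and 59.9, 46.9 and 41.5 in knockouts. Its log2 fold change was 0.99 ± 0.21, with an edgeR adjusted p of 0.0524. The counting may share reads here too, since 26.9% of the 50-base words of Slc22a5 occur in Slc22a21. Crat, which attaches acetyl groups to carnitine, had 71.7, 48.3 and 80.1 CPM in controls and 139, 106 and 88.8 in knockouts (0.74 ± 0.22, edgeR adjusted p = 0.128).

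Cpt1a, the rate-limiting gate for long chains at the outer mitochondrial membrane, had 423, 345 and 550 CPM in controls and 626, 600 and 570 in knockouts. The distance between its highest control and lowest knockout was small beside the spread of the controls, and the log2 fold change was 0.45 ± 0.18 (edgeR adjusted p = 0.231). Cpt2, which regenerates acyl-CoA in the matrix, was tightly grouped at 162 to 174 CPM in controls and 186 to 194 in knockouts, a log2 fold change of 0.20 ± 0.12. Control replicate 2 was the lowest library for all 4 genes of the shuttle.

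Acsl1, the main long-chain acyl-CoA synthetase of the liver, had 1278, 935 and 1246 CPM in controls and 1960, 2015 and 1781 in knockouts. These groups lay far apart, and the log2 fold change was 0.74 ± 0.17 with an edgeR adjusted p of 0.0633. Acsl5 had 202, 174 and 286 CPM in controls and 295, 254 and 285 in knockouts, and the scarce Acsl3 had 9.39, 8.22 and 11.7 against 14.6, 11.0 and 16.1. Both overlapped between the groups, at log2 fold changes of 0.33 ± 0.19 and 0.51 ± 0.19. For Pank1, which begins coenzyme A synthesis, levels were 122, 117 and 166 CPM in controls and 159, 181 and 162 in knockouts (0.31 ± 0.16). Vnn1, which recycles pantetheine, had 66.6, 31.3 and 56.1 against 59.0, 68.2 and 43.2 (0.15 ± 0.27). Creb3l3 encodes a liver transcription factor of fasting lipid metabolism and had 321, 341 and 365 CPM in controls and 455, 426 and 359 in knockouts (0.27 ± 0.14).

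None of the 12 mitochondrial beta-oxidation genes passed, and their log2 fold changes ran from -0.12 (Eci1) to 0.39 (Acad11) with a median of 0.114. Leaving out control replicate 3 gave 0.210. The largest value belonged to Acad11, an acyl-CoA dehydrogenase that is also reported in peroxisomes, with 301, 288 and 371 CPM in controls and 414, 444 and 402 in knockouts (0.39 ± 0.15, edgeR adjusted p = 0.204). Hadha and Hadhb, the subunits of the trifunctional protein, lie head to head on chromosome 5. Hadha had 356, 356 and 422 CPM against 490, 455 and 437 (0.29 ± 0.14), and Hadhb 167, 133 and 165 against 179, 192 and 179 (0.24 ± 0.14). Of the 50-base words of Hadhb 61.5% occur in the copy Gm13910, so its counts are uncertain. Decr1, the mitochondrial dienoyl-CoA reductase, had 142, 113 and 140 CPM in controls and 158, 177 and 154 in knockouts (0.31 ± 0.14, edgeR adjusted p = 0.284).

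The dehydrogenases differ in the chain length they take. Acadm, for medium chains, had 320, 244 and 268 CPM in controls and 275, 287 and 274 in knockouts, a log2 fold change of 0.01 ± 0.14. Acadl was at -0.02 ± 0.19, Acads, for short chains, at 0.14 ± 0.19 and Acadvl, for very long chains, at 0.20 ± 0.13. The most abundant mitochondrial member, the thiolase Acaa2, had 670, 714 and 703 CPM in controls and 720, 725 and 768 in knockouts, a difference of 0.08 ± 0.13. Its knockouts were all above its controls, by a margin smaller than the SD of either group. The hydratase gene Echs1 and the dehydrogenase gene Hadh were at 0.08 ± 0.17 and 0.00 ± 0.15.

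The electron transfer flavoprotein takes electrons from the acyl-CoA dehydrogenases, and Etfdh passes them to the respiratory chain. Etfa had 276, 197 and 206 CPM in controls and 195, 216 and 209 in knockouts, and Etfb 371, 247 and 237 against 240, 260 and 254. In both subunits control replicate 1 was the highest library and the remaining controls lay beside the knockouts. Log2 fold changes were -0.13 ± 0.16 and -0.18 ± 0.19, and without control replicate 1 they were 0.04 and 0.05. Etfb is uncertain, as 67.3% of its 50-base words occur in Gm45233. Etfdh was at 193, 156 and 184 CPM against 201, 212 and 206 (0.21 ± 0.14, edgeR adjusted p = 0.421).

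Bdh1, whose enzyme interconverts the ketone bodies acetoacetate and beta-hydroxybutyrate, was not called and had 227, 191 and 246 CPM in controls and 282, 193 and 204 in knockouts, so that knockout replicate 1 stood above all controls and the other knockouts did not. Its log2 fold change was 0.03 ± 0.18. Outside the 48, and chosen after its values were seen, the mitochondrial thiolase gene Acat1 had 433, 349 and 403 CPM in controls and 343, 389 and 391 in knockouts (-0.08 ± 0.14), and its groups overlapped.

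**Figure D3:**
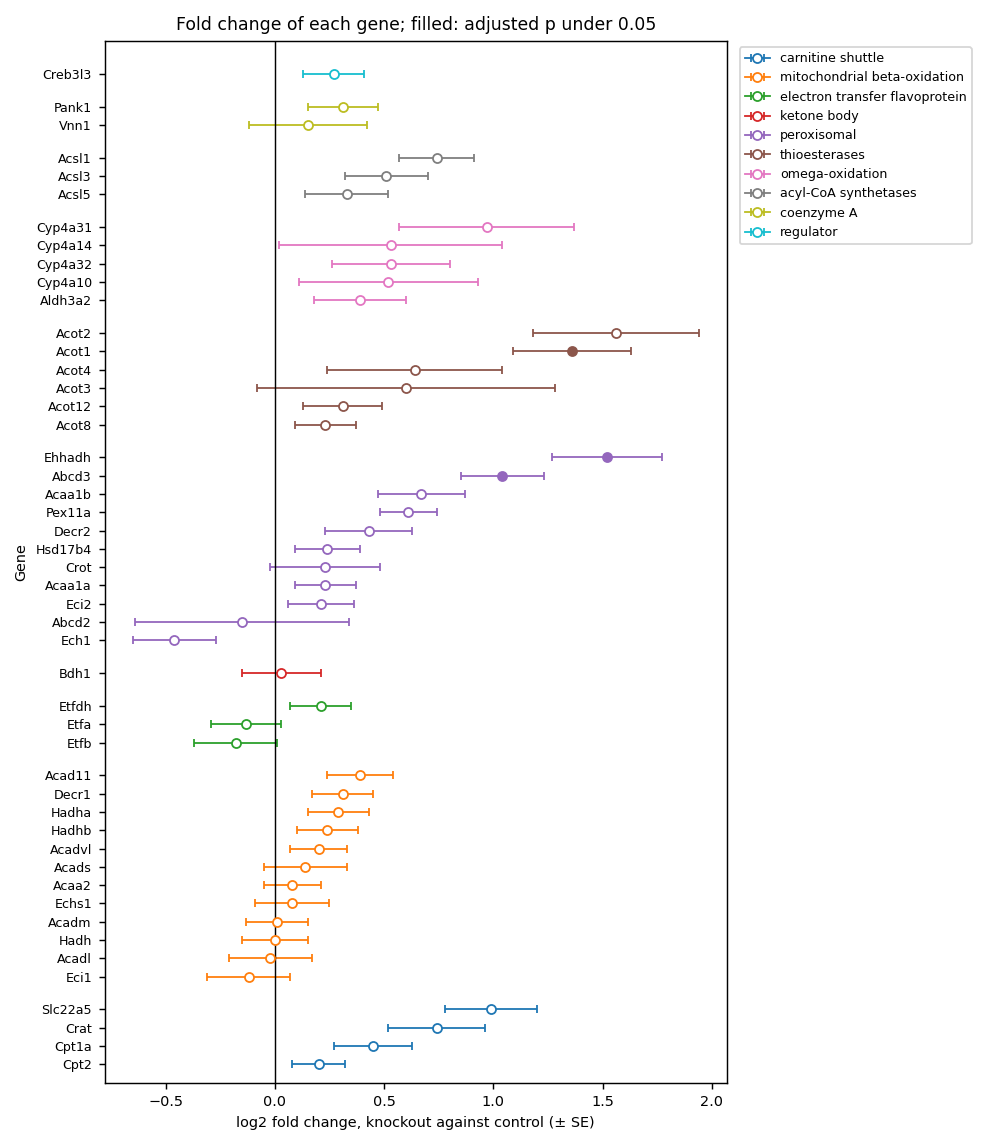
Points are log2 fold changes of knockout against control and bars their SE, by role group, with filled points for an adjusted p under 0.05 in edgeR. Ehhadh, Abcd3 and Acot1 are filled, and the mitochondrial beta-oxidation genes lie between -0.12 and 0.39.

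Control replicate 2 was the lowest library for all 5 omega-oxidation genes. Cyp4a14, shown with Acot3 above after their values were seen, had 1137, 167 and 690 CPM in control replicates 1, 2 and 3 and 988, 1062 and 823 in the knockouts. Control replicate 1 exceeded all knockouts while control replicate 2 was the lowest by far, and the log2 fold change of 0.53 had an SE of 0.51. Cyp4a10 had the same order among the controls, with 1428, 352 and 944 CPM against 1011, 1665 and 1235 (0.52 ± 0.41). Cyp4a31 had 17.8, 4.91 and 11.5 CPM in controls and 24.1, 28.3 and 14.1 in knockouts (0.97 ± 0.40, edgeR adjusted p = 0.238), and Cyp4a32 62.3, 29.8 and 31.4 against 50.4, 67.8 and 59.2 (0.53 ± 0.27). The copies are similar: 46.8% of the 50-base words of Cyp4a32 and 30.5% of those of Cyp4a10 occur in other genes, mostly of this cluster on chromosome 4. Aldh3a2, which oxidises the fatty aldehydes formed on the way, had 227, 201 and 347 CPM against 372, 314 and 328 (0.39 ± 0.21).

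Levels can be set beside each other on the length-scaled TPM of the authors. Together the 48 genes took 7972, 6719 and 9208 TPM in controls and 10715, 10361 and 9248 in knockouts, that is 0.672% to 0.921% of all TPM in controls and 0.925% to 1.07% in knockouts. The smallest knockout sum was only just above the largest control sum. The highest mean levels over the 6 libraries were those of Acaa1b (925 TPM), Cyp4a10 (733), Acaa2 (712) and Acsl1 (530), and the lowest those of Abcd2 (2.93) and Acsl3 (4.25). Cyp4a10 and Acaa2 did not differ beyond their spread over libraries, since the SD of Cyp4a10 alone was 297 TPM in controls.

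By role, the peroxisomal genes summed to 2203 ± 278 TPM in controls and 2959 ± 275 in knockouts (SD, n = 3), and the mitochondrial beta-oxidation genes to 2366 ± 360 and 2577 ± 114. The ratio of the peroxisomal to the mitochondrial sum was 1.15, 0.805 and 0.880 in controls and 1.18, 1.19 and 1.07 in knockouts. Control replicate 1 thus lay between knockout replicates, and the groups overlapped. The ratio of Ehhadh to Hadha, which encode enzymes of the same reactions in peroxisomes and mitochondria, was 0.718, 0.398 and 0.666 in controls and 1.44, 1.56 and 1.20 in knockouts. Here the groups were apart, as the values of Ehhadh alone were. Thioesterases summed to 196, 158 and 443 TPM in controls and 622, 444 and 404 in knockouts, so that control replicate 3 lay among the knockouts. The synthetases summed to 475, 441 and 639 against 889, 815 and 750.

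**Figure D4:**
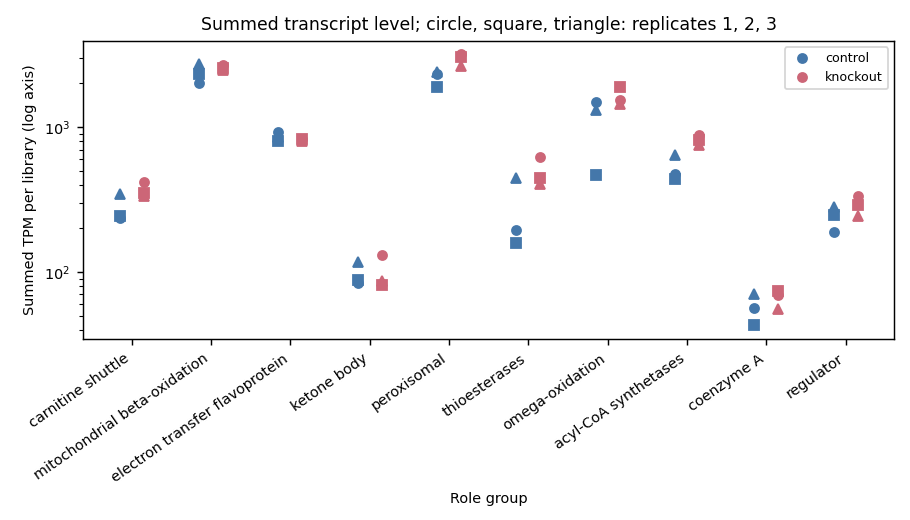
Points are the summed TPM of each role group in each library on a log axis, with a colour for each group. Peroxisomal genes and synthetases separate by group, while for omega-oxidation control replicate 2 stands alone at 465 TPM below the 1320 to 1878 of the other libraries.

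The controls varied more than the knockouts in these genes. The SD of log2 CPM was larger among controls for 40 of the 48 (83.3%), where it was for 70.5% of all tested genes. Its median over the 48 was 0.342 among controls and 0.116 among knockouts, beside 0.226 and 0.139 over all tested genes. Control replicate 2 was the lowest of the 6 libraries for 37 of the 48 genes, while it was the lowest for 14.9% of all tested genes. Knockout replicates 1 and 2 were the highest for 15 and 19 genes, against 16.7% and 12.5% of all genes. Measured from the control mean, the median of the 48 in log2 CPM was 0.08, -0.22 and 0.19 in control replicates 1, 2 and 3 and 0.37, 0.36 and 0.23 in knockout replicates 1, 2 and 3. Transcript length moved with library as well: across genes, Spearman's rho of length with a gene's deviation from its mean was -0.30, -0.22 and 0.28 for the controls and 0.27, 0.076 and 0.089 for the knockouts. With each library's length trend removed, Ehhadh, Abcd3, Acot1, Pex11a and Slc22a5 passed, and the members' median was 0.308. Calls in the whole table rose as well, from 181 genes (1.49%) to 280 (2.3%).

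A wider list of 98 other genes of the pathway held 94 that were tested, of which 3 rose and none fell in edgeR. By that rule 0.772% of all tested genes were higher and 0.715% lower. DESeq2 called 13 of the 94 higher and 1 lower, Cd36, against 3.08% and 2.18% of all genes. The median log2 fold change of the 94 was 0.184. The 3 that rose in edgeR were Pdk4, the kinase that spares glucose carbon during fat burning, Ppargc1a, a coactivator of PPAR-alpha, and Txnip, a regulator of glucose uptake. Txnip had 81.0, 112 and 122 CPM in controls and 236, 220 and 189 in knockouts (1.03 ± 0.18, edgeR adjusted p = 0.0291). Pdk4 had 3.42, 2.74 and 4.93 CPM against 50.8, 32.5 and 18.1 (3.19 ± 0.38, edgeR adjusted p = 0.00822). Ppargc1a had 4.36, 4.34 and 5.50 CPM against 9.83, 10.7 and 11.7 (1.18 ± 0.16, edgeR adjusted p = 0.0131). In all 3 genes the groups did not overlap. The edgeR call of Pdk4 held with any library left out, at 0.00295 to 0.0366. That of Ppargc1a was lost without control replicate 2 (0.0509) or knockout replicate 2 or 3 (0.0623 and 0.0582), and that of Txnip without control replicate 2 (0.0805) or knockout replicate 1, 2 or 3 (0.113, 0.132 and 0.0761). Ppara itself, chosen after its values were seen, had 174, 182 and 275 CPM in controls and 347, 289 and 275 in knockouts, where control replicate 3 and knockout replicate 3 were nearly equal (0.53 ± 0.20, edgeR adjusted p = 0.202).

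None of the 31 other peroxisomal genes passed, with 11 higher and 1 lower at an unadjusted p under 0.05 (9.27% and 9.26% of all tested genes) and a median of 0.177. The smallest p values were those of Slc25a17, a carrier of cofactors in the peroxisomal membrane (19.6, 24.2 and 21.2 against 30.9, 36.8 and 34.2 CPM; 0.65 ± 0.14, edgeR adjusted p = 0.0540), and Amacr, a racemase for branched chains (0.52 ± 0.12, edgeR adjusted p = 0.0722).

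Among the 20 tested genes of mitochondrial oxidation and ketone bodies none was higher and 1 was lower at an unadjusted p under 0.05, Echdc3 (-0.45 ± 0.14), beside the same 9.27% and 9.26%, with a median of 0.071. Slc25a20, the carnitine carrier of the inner membrane, was at 0.36 ± 0.16, with knockouts of 112 to 121 CPM just above controls of 74.7 to 110. In the list of thioesterase and activation genes Them4 (0.45 ± 0.14) and Slc27a2, a peroxisomal very-long-chain synthetase (0.50 ± 0.16), had the smallest p, and among omega-oxidation genes Cyp4v3 (0.59 ± 0.17) and Cyp4a12b (1.21 ± 0.43). Lpin2, a phosphatidate phosphatase, had 224, 247 and 284 CPM against 498, 421 and 369 (0.77 ± 0.16, edgeR adjusted p = 0.0549). For the fatty acid uptake receptor Cd36 the knockouts were the lower group, with 35.4, 20.9 and 47.3 CPM in controls and 10.4, 13.8 and 18.6 in knockouts. Its log2 fold change was -1.28 ± 0.30, with an adjusted p of 0.0718 in edgeR and 0.00113 in DESeq2.

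The promoters of the 3 genes that rose are shown because these are the members past the threshold. RefSeq's table for GRCm38.p6 held a window of 300 bases, from 250 before to 50 after the gene start, for 39 of the 48 genes. The 250 bases upstream of each start, 5′ to 3′ on the gene's strand, lie at chr16:21787835-21788084 (minus) for Ehhadh, chr3:121815303-121815552 (minus) for Abcd3 and chr12:84009252-84009501 (plus) for Acot1:
Ehhadh: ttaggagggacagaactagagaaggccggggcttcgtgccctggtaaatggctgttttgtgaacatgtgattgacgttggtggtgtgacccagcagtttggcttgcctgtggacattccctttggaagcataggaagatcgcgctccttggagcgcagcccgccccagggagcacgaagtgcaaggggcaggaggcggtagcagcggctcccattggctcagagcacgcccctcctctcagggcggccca
Abcd3: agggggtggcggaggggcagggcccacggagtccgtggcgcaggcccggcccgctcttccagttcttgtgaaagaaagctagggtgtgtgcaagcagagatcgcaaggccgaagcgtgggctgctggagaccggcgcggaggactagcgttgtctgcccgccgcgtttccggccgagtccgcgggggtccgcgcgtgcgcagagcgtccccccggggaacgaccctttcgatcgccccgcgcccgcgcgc
Acot1: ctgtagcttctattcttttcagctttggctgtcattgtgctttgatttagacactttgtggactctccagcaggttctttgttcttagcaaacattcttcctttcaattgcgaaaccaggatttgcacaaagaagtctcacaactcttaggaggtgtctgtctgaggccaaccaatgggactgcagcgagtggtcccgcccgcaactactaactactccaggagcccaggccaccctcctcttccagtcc
Their G and C content was 60.4%, 72.0% and 48.8%.

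The windows were searched on both strands for the direct repeat that PPAR-alpha binds with its partner RXR, the hexamer AGGTCA, any base N and AGGTCA again, allowing 2 mismatches outside the N. A match was found in 5 of the 39 genes (12.8%), beside 4.40% of 27025 genes in the table. None of these 5 passed the threshold, and Ehhadh, Abcd3 and Acot1 had no match, with at least 4 mismatches at the nearest place. The matches, in capitals and in gene direction with 8 bases on either side, lie 110 bases upstream of the window's RefSeq start in Acot12 (chr13:91741403-91741431, plus strand), 13 in Acot4 (chr12:84038358-84038386, plus), 209 in Creb3l3 (chr10:81092780-81092808, minus), 83 in Echs1 (chr7:140116484-140116512, minus) and 77 in Etfa (chr9:55512300-55512328, minus):
Acot12: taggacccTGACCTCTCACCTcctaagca
Acot4: ccgaagcaTGACCTTTGGCCGgtctgtgc
Creb3l3: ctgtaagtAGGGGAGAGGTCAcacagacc
Echs1: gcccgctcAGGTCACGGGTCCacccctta
Etfa: gcacacccTTACCTTTGCCCTactcccaa
For Acot12, Acot4 and Creb3l3 that start lies 195, 1125 and 6281 bases inside the gene as the deposited coordinates give it, so these 3 matches are within the deposited gene, and Creb3l3 has 2 windows. Acot12 differs from the repeat at 1 base and the others at 2. Their log2 fold changes were 0.31, 0.64, 0.27, 0.08 and -0.13. A match describes these letters only, and its absence says nothing about binding elsewhere.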

How the data were processed

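Bulk poly(A)-selected RNA of mouse liver was measured in 3 control and 3 knockout libraries. Per the submitters' processing notes, HISAT2, Bowtie2 and RSEM 1.3.1 were used with GRCm38. The sources used here do not give each tool's role, any trimming or the strand setting. The deposited table holds estimated counts, FPKM and TPM per library, their group means, and a DESeq2 log2 fold change with p-value and q-value, all from the authors per the file headers. The deposited columns call the controls WT, where the labels give Selofl/fl; columns were matched to samples by group and number.

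Estimated counts, as deposited by the authors, were rounded. After filterByExpr and TMM scaling, edgeR 4.0.16 (R 4.3.3) tested each gene by quasi-likelihood, with Benjamini-Hochberg adjustment over all 12173 genes at 0.05. SEs come from the F statistic. The fit was also run on simulated counts with known changes. These held no length trend and no outlying library, so that run says nothing about how stable the calls are here.

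Members and lists were chosen with earlier results of these data known. Per-library values follow a rule: every member that passed and, per role group, the 3 with the smallest p and that with the highest TPM; of other pathway genes, those that passed and otherwise the 2 with the smallest p per list. Per-library values of Ech1, Acaa1a, Acot3, Acot4, Acadm, Hadhb, Cyp4a14, Acat1 and Ppara were added after they were seen, and the remaining members are given by range or fold change. Alternatives were DESeq2 size factors, the DESeq2 Wald test (1.42.0) on 16128 genes without the low-count filter, other filters, limma 3.58.1 on log2(FPKM + 1) or log2(FPKM + 0.1), removal of each library's transcript length trend (a spline with 5 degrees of freedom on lengths implied by counts and FPKM), the replicate number as a block, and each library left out. Shared 50-base words came from GENCODE M21 transcripts.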

Additional observations from a re-analysis of the deposited data

How the results depend on the processing

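All alternatives kept the sign of the members' median (0.181 to 0.370) and the fall of Selenoo (log2 fold change of -3.30 to -3.71, called each time), and none called a member lower. Members called higher, 3 with all libraries, were 7 with no low-count filter, 0 with the replicate block, 9 with DESeq2 (a change of both test and filter), 1 with limma on log2(FPKM + 1), 5 with the length trend removed, 1 with the replicate block and length trend removed, and 0 to 9 with a library left out. Genes called higher, 94 in all, were 174, 42, 371, 48 and 163 in the same order up to the length trend, 52 with limma on log2(FPKM + 0.1), and 19 to 407 with a library left out. Genes called lower, 87, were 156 with no filter, 45 with the replicate block, 263 with DESeq2, and 24 to 261 with a library left out. The cause was not tested.

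Same-numbered libraries showed no positive correlation: their deviations correlated across genes at -0.16, -0.0786 and -0.076. Because deviations were taken from each group's own mean, such values cannot settle whether the replicate numbers pair the libraries. With the replicate block the adjusted p of Ehhadh, Abcd3 and Acot1 in edgeR was 0.0667, 0.0898 and 0.0770.

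Signs that turned belonged to genes that were not called. With a library left out, Etfb ran from -0.30 to 0.05 and Etfa from -0.22 to 0.04 (positive without control replicate 1), Bdh1 from -0.16 to 0.14 and Vnn1 from -0.11 to 0.38. Bdh1 was -0.04 on either FPKM scale. Each group has 3 libraries, and controls varied more than knockouts in 40 of the 48 genes, which limits the precision more for genes such as Acot3 and Cyp4a14 (SE of 0.68 and 0.51).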
